A study of Mus musculus with 13 samples.

Results

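Macrophages and their myeloid relatives inside mouse thymic T cell lymphomas were followed through 37 genes, chosen by name from a list of macrophage, monocyte and granulocyte genes among the 43629 genes of the expression table. All 37 were found and all 37 passed the filter on low values. RNA sequencing covered 13 libraries in 3 groups: 5 thymic lymphomas of Atm-/- mice (strain 129S6/SvEv), 5 thymic lymphomas of Rag2c/c p53-/- mice (mixed C57BL/6 and 129S6/SvEv) and 3 thymuses of wild-type (WT) C57BL/6 mice. Atm encodes the kinase that signals DNA double-strand breaks, p53 the tumor suppressor downstream of it, and Rag2c/c mice carry a RAG2 protein cut short at its C terminus, the core form of this recombinase subunit. The deletions are carried by the whole mouse, myeloid cells included. No age is given in the labels, and the labels mark the WT thymuses as re-used samples. Strain and the re-use of samples therefore go with the group, and what they add to a difference between lymphoma and thymus cannot be told apart from the tumor. The lymphoma groups also differ in strain, so what strain adds to a difference between them cannot be told apart from genotype.

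Macrophages arise from embryonic precursors and from blood monocytes, and depend on the receptor CSF1R and its ligands for survival. In the thymus they take up the many thymocytes that die during selection: receptors on their surface bind dying cells, Fc receptors and complement mark targets for uptake, and the cargo is broken down in lysosomes. Neutrophils belong to the same myeloid branch, but store antimicrobial proteins in granules and carry large amounts of the calcium binding proteins S100A8 and S100A9.

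By the study's methods the RNA of the WT thymuses came from single-cell suspensions of whole tissue, which was taken to hold for the lymphomas. These genes were thus read in a background of T lineage cells. The summed normalized count of 10 thymocyte genes (Cd3e, Lck and others) was 78498 to 150187 in Atm-/- lymphomas, 109216 to 165579 in Rag2c/c p53-/- lymphomas and 158958 to 251491 in WT thymuses, whereas the 37 myeloid genes together made up 0.0671% to 0.207% of a library. Here and below a value is a normalized count, the read count of a gene divided by the library's size factor and rounded by the authors. In such bulk tissue, fewer cells of a type and less RNA per cell cannot be told apart. In 6 libraries the depth could be read from the spacing of low values and lay between about 6360000 and 13740000 reads. In the other 7 the spacing was too fine to read, and the depth is at least 18000000 if 1 read stands for at most 1.1, which was assumed. Rag2c/c p53-/- lymphoma 2 and WT thymus 2 were the shallowest, at about 6360000 and 6680000 reads. WT thymus 2 was the lowest of its group for 29 of the 37, and Rag2c/c p53-/- lymphoma 2 was the lowest of its 5 for 18. Atm-/- lymphoma 2, the shallowest of its group at about 9210000 reads, was the lowest of its 5 for 19. Each of these libraries also had the highest thymocyte sum of its group, at 251491, 165579 and 150187 in this order. What part depth or cell composition has in this was not tested. Results that rest on WT thymus 2 or Rag2c/c p53-/- lymphoma 2 are given with and without it. Of the targeted genes, Atm was at 208 to 732 in Atm-/- lymphomas, 439 to 1315 in Rag2c/c p53-/- lymphomas and 1559 to 2274 in WT thymuses, and Trp53, which encodes p53, at 2018 to 5461 in Rag2c/c p53-/- lymphomas, overlapping with 4387 to 6341 in WT thymuses and below the 6853 to 11318 of Atm-/- lymphomas. Rag2 was at 46 to 1025 in Atm-/- lymphomas, 260 to 790 in Rag2c/c p53-/- lymphomas and 4199 to 5409 in WT thymuses, so it was low in both lymphoma groups. Neither Atm nor Trp53 was absent from its knockout, so a value summed over the whole gene is no strict check of the labels.

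Lymphomas of both genotypes held more RNA of a block of phagocyte genes than WT thymus. S100a8, S100a9 and Timd4 were lower in both, and Ccr2, Cx3cr1, Cd163 and Cybb also passed as lower in Rag2c/c p53-/- lymphomas. A gene is called changed here at an adjusted p under 0.05 in limma (Benjamini-Hochberg over 15872 genes), with a log2 fold change of at least 1 in size on the log2(value + 1) scale. In Atm-/- lymphomas 17 of 37 members (45.9%) were higher than in WT thymus and 3 (8.11%) were lower, whereas of all genes tested 12.6% were higher and 17.0% lower, so that lower members were a smaller share than among all genes. In Rag2c/c p53-/- lymphomas 11 members (29.7%) were higher and 7 (18.9%) lower, against 9.77% and 13.9% of all genes. The members were chosen with earlier results of these data known, so these shares describe the list and test no excess. Groups did not overlap for 16 members that were higher (all genes 23.4%) and 5 that were lower (27.9%) in Atm-/- lymphomas, and for 13 (19.7%) and 7 (24.2%) in Rag2c/c p53-/- lymphomas. The median log2 fold change of the members was 1.04 and 0.43, and that of all genes -0.02 in each comparison. Without WT thymus 2 and Rag2c/c p53-/- lymphoma 2, the counts were 14 higher and 4 lower in Atm-/- lymphomas, and 11 higher and 6 lower in Rag2c/c p53-/- lymphomas. Without WT thymus 3, 4 members were lower in Rag2c/c p53-/- lymphomas.

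**Figure D1:**
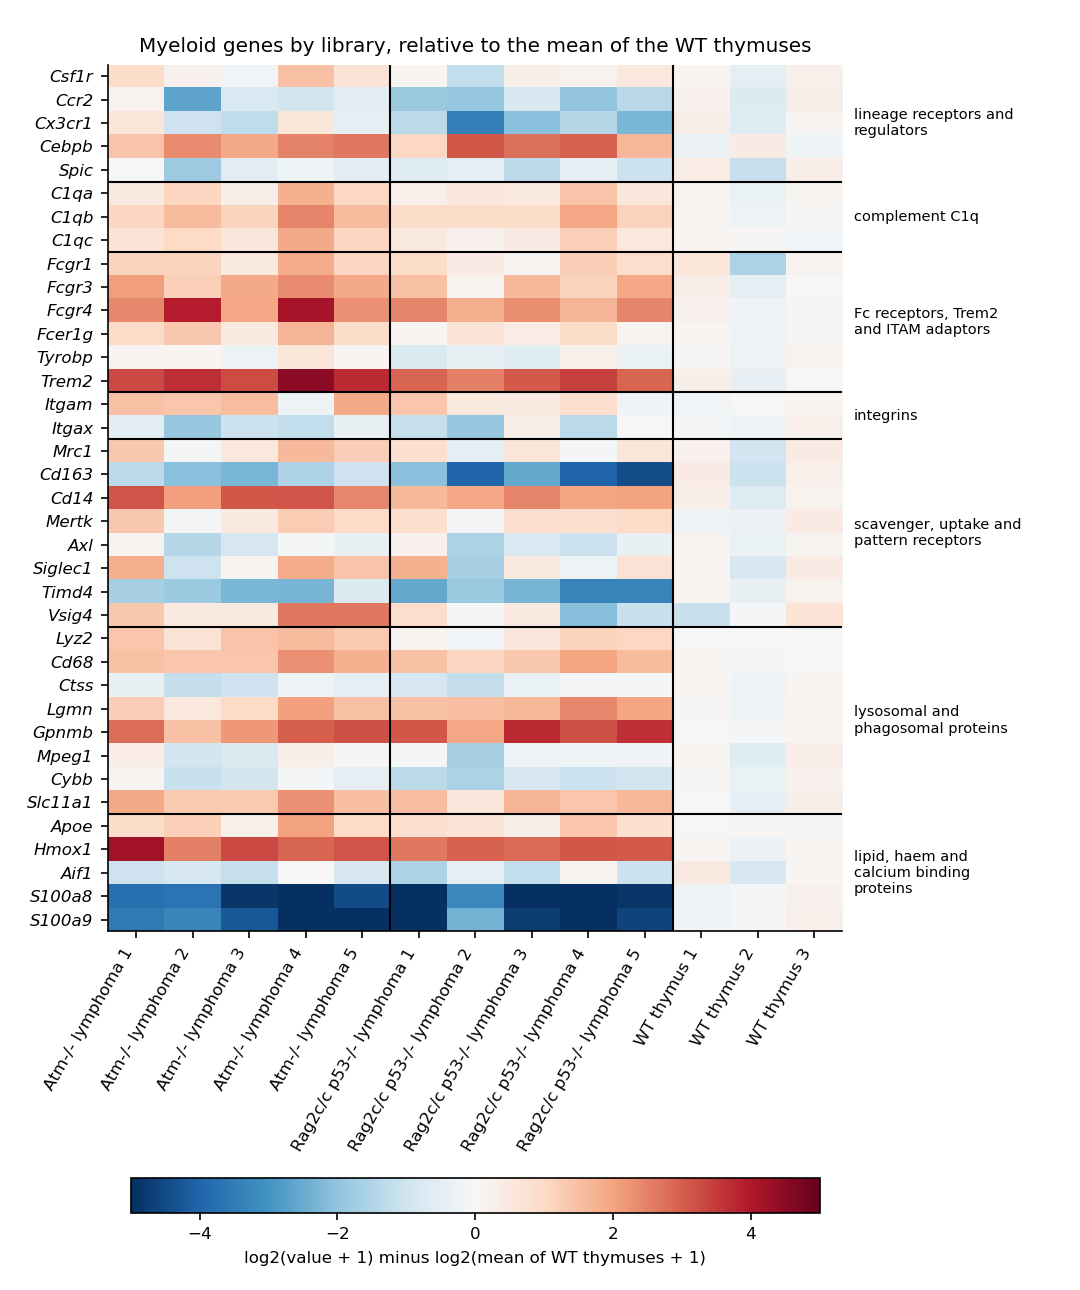
Each cell is the log2(value + 1) of a member (rows, in role groups) in a library (columns), minus the log2 of the mean of the 3 WT thymuses plus 1; colors are clipped at 5 in either direction. Trem2, Hmox1, Gpnmb, Fcgr4 and Cd14 are red in all 10 lymphomas, and S100a8, S100a9 and Timd4 are blue in all 10.

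The members sorted into 5 patterns, and the 2 lymphoma comparisons share the WT thymuses. Higher in both lymphoma groups were 11 genes: Trem2, Hmox1, Gpnmb, Fcgr4, Cd14, Cebpb, Fcgr3, Slc11a1, Cd68, C1qb and Lgmn. A further 6 (Apoe, C1qc, Fcer1g, Fcgr1, Itgam and Lyz2) passed the test only in Atm-/- lymphomas. S100a8, S100a9 and Timd4 were lower in both groups, and Ccr2, Cd163, Cx3cr1 and Cybb passed as lower only in Rag2c/c p53-/- lymphomas. The remaining 13 passed in neither comparison. A test of the difference between the lymphoma groups themselves called Cx3cr1 and Cd163 alone, as described below. For the other 8 members that passed in a single comparison, a difference between the lymphoma groups was not shown. Strain differs between these groups as well as genotype.

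**Figure D2:**
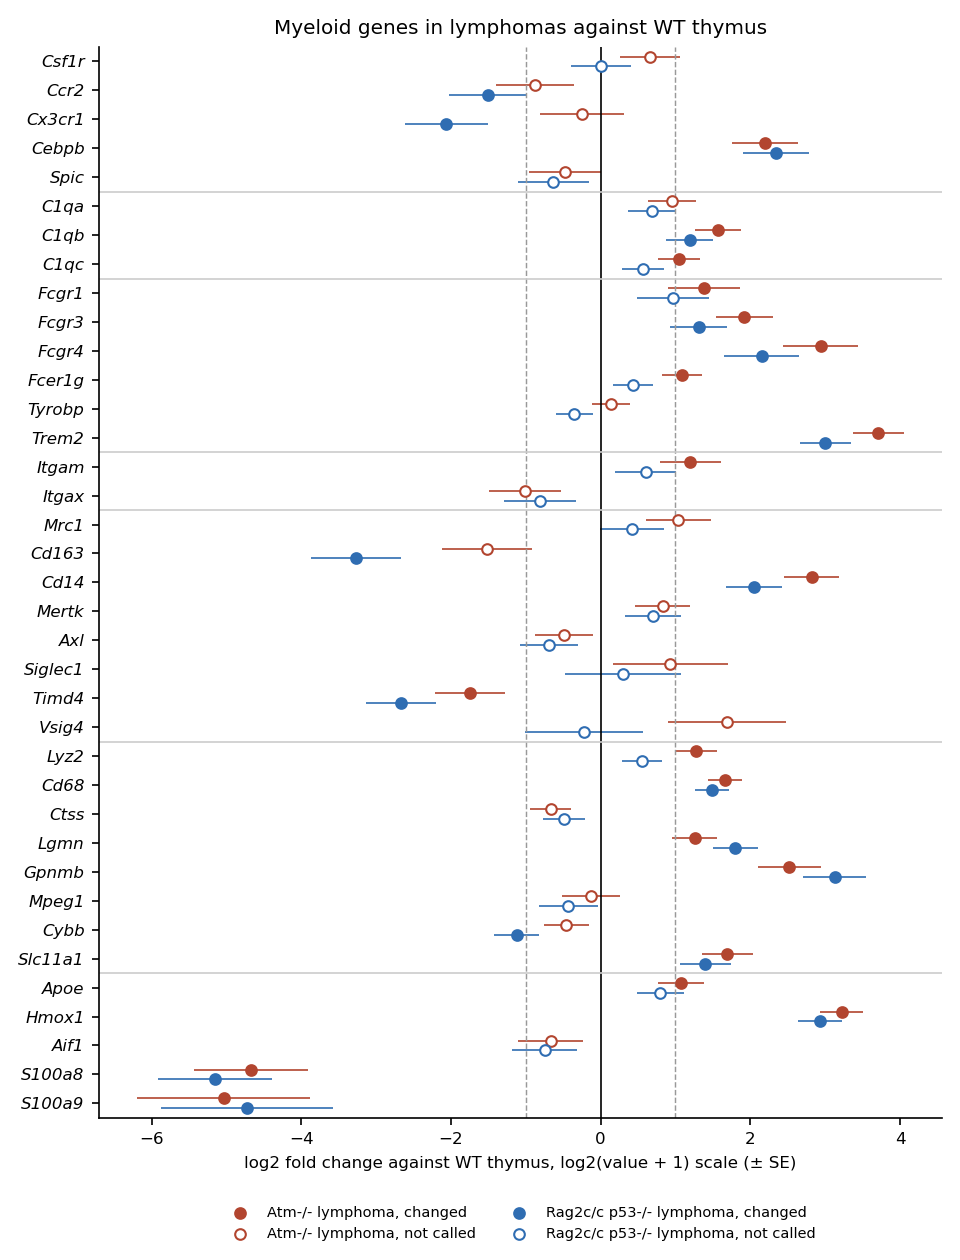
Log2 fold change of each member against WT thymus on the log2(value + 1) scale, with its SE, for Atm-/- lymphomas (red, n = 5) and Rag2c/c p53-/- lymphomas (blue, n = 5) against the same 3 WT thymuses; filled points were called changed and dashed lines mark a log2 fold change of 1. Values run from 3.71 for Trem2 in Atm-/- lymphomas down to -5.15 for S100a8 in Rag2c/c p53-/- lymphomas.

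Among the receptors and regulators of the lineage, the transcription factor Cebpb rose in both lymphoma groups, while the receptor that defines the lineage, Csf1r, passed in neither. Cebpb, a C/EBP factor active in differentiating and activated macrophages, was at 315, 617, 445, 669 and 734 in the 5 Atm-/- lymphomas, at 245, 1017, 805, 908 and 377 in the Rag2c/c p53-/- lymphomas and at 96, 156 and 101 in the WT thymuses. All 10 lymphomas lay above the 3 thymuses. The log2 fold change was 2.20 ± 0.44 (SE, adjusted p = 0.00152, limma) for Atm-/- lymphomas and 2.34 ± 0.44 (adjusted p = 0.00136) for the Rag2c/c p53-/- group. The gene lies within Tmem189 on the opposite strand, whose mean value was 1377, and the strand setting of the counting is not given in the sources used here, so reads of the pair may not be told apart.

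Csf1r, the receptor for CSF1 and IL-34, had the highest mean of this role group, and overlaps Hmgxb3 on the opposite strand. It was at 871, 546, 428, 1294 and 744 in Atm-/- lymphomas, at 495, 196, 570, 532 and 674 in Rag2c/c p53-/- lymphomas and at 498, 341 and 556 in WT thymuses. The groups overlapped, and the adjusted p was 0.193 and 0.994 in limma. Spic, a transcription factor of iron-recycling macrophages, was low throughout, with means of 45.8, 39.2 and 66.0 and an adjusted p of 0.432 and 0.323.

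The chemokine receptors of monocytes went the other way in the Rag2c/c p53-/- group. Cx3cr1, the fractalkine receptor of patrolling monocytes and resident macrophages, was at 45, 10, 27, 43 and 23 in Rag2c/c p53-/- lymphomas, below the 179, 57, 48, 177 and 86 of Atm-/- lymphomas and the 147, 75 and 129 of WT thymuses. The Rag2c/c p53-/- values overlapped with neither of the other groups, while Atm-/- lymphomas and thymuses overlapped (adjusted p = 0.737). Cx3cr1 fell by 2.06 ± 0.56 (log2, SE, adjusted p = 0.0115) against WT thymus, and its log2 fold change of Atm-/- against Rag2c/c p53-/- lymphomas was 1.81 ± 0.49 (adjusted p = 0.0288), where 3.51% of all genes were called higher. Its annotated span also covers Csrnp1, Gorasp1 and Wdr48, so that shared reads are a source of uncertainty here too. Ccr2, which draws monocytes out of the bone marrow, was at 71, 68, 150, 66 and 99 in Rag2c/c p53-/- lymphomas against 297, 162 and 317 in WT thymuses, without overlap, a log2 fold change of -1.51 ± 0.52 (adjusted p = 0.0355). In Atm-/- lymphomas it ranged from 41 to 296 and passed no test (adjusted p = 0.182). Most of these calls needed single libraries. Against WT thymus, Cx3cr1 was lost without WT thymus 1 (adjusted p = 0.0594) or 3 (0.0527), and Ccr2 without Rag2c/c p53-/- lymphoma 1, 2 or 4 or WT thymus 1 or 3, where the adjusted p was 0.0575 to 0.137, and without both shallowest libraries (0.0644). Between the lymphoma groups, Cx3cr1 was lost without Atm-/- lymphoma 1 (adjusted p = 0.0744) or 4 (0.0719) or Rag2c/c p53-/- lymphoma 5 (0.0585), and without both shallowest libraries (0.0558).

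The 3 chains of C1q, the pattern-binding subunit that starts the classical complement pathway and also coats dying cells, were higher in every lymphoma than in any WT thymus. Their genes sit side by side on the minus strand of chromosome 4 (GRCm38), C1qb at chr4:136880129-136886187, C1qc at chr4:136889804-136893065 and C1qa at chr4:136895917-136898803. C1qb, the chain with the highest mean, was at 1305, 1822, 1309, 3356 and 1817 in Atm-/- lymphomas, at 1173, 1165, 1170, 2375 and 1349 in Rag2c/c p53-/- lymphomas and at 682, 510 and 646 in WT thymuses. Its log2 fold change was 1.57 ± 0.31 (SE, adjusted p = 0.00125) and 1.19 ± 0.31 (adjusted p = 0.00858). C1qc passed in Atm-/- lymphomas, at 1.05 ± 0.28 (adjusted p = 0.00819), and reached 0.57 ± 0.28 in Rag2c/c p53-/- lymphomas (adjusted p = 0.119). C1qa, at means of 1104, 901 and 541, had an adjusted p of 0.0274 in Atm-/- lymphomas but a log2 fold change of 0.95, under the threshold of 1.

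In both lymphoma groups library 4 was the highest for all 3 chains, and it exceeded the next library of its group by a wide gap, as with 3356 against 1822 for C1qb. The lymphoma numbers only follow the order of the samples, so a shared number links no tumors across groups. The ratio of C1qb to C1qa was 1.59 to 1.90 in Atm-/- lymphomas and 1.45 to 1.80 in Rag2c/c p53-/- lymphomas, above the 1.09 to 1.19 of WT thymuses, so C1qb gained more than C1qa. The ratio of C1qc to C1qa overlapped between the groups (1.26 to 1.63, 1.05 to 1.56 and 1.13 to 1.76). Single libraries decided 2 of the calls: without Atm-/- lymphoma 4 the log2 fold change of C1qc was 0.83 and without WT thymus 3 it was 0.98, and that of C1qb in Rag2c/c p53-/- lymphomas was 0.99 without lymphoma 4. C1qa in Atm-/- lymphomas passed without lymphoma 1 (1.08) or lymphoma 3 (1.1).

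Because the neighboring C1q genes moved together, the 250 bases before the RefSeq start of the members (GRCm38.p6) were searched for 4 short motifs of myeloid regulators, on both strands. These were GAGGAA, a core bound by the lineage factor PU.1, TTGCNNAA for C/EBP factors, TGANTCA for AP-1 and TCATGTG, the M-box bound by MITF and its relatives. None of the 4 contains another. A promoter was at hand for 31 of the 37 members. GAGGAA stood in 16 of these 31 (51.6%) and in 23.3% of all 32851 promoters, TTGCNNAA in 3 (9.68%) and 9.56%, TGANTCA in 4 (12.9%) and 6.75%, and TCATGTG in 2 (6.45%), C1qb and C1qc, and 3.25%. A member was counted if any of its promoters held the motif, whereas the share of all is per single promoter, so the shares are not strictly alike. A match describes letters in the window and no binding. The window of C1qb (chr4:136886201-136886450, minus strand) is printed 5′ to 3′ in the direction of the gene, with the matches in capitals, TCATGTG and GAGGAA in that order.
C1qb: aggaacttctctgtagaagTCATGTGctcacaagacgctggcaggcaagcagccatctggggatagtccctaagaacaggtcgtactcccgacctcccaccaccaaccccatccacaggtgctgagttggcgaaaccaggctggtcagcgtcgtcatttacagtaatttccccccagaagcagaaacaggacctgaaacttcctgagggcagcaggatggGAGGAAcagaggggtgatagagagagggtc

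Fc receptors bind the constant part of antibodies, and Trem2 is a lipid receptor of phagocytes. Of the 6 genes of this role group 5 rose in Atm-/- lymphomas (all genes 12.6%) and 3 in the Rag2c/c p53-/- group (all genes 9.77%). Trem2 had the highest log2 fold change of all members in Atm-/- lymphomas: it was at 145, 187, 138, 322 and 192 there, at 109, 84, 121, 156 and 110 in Rag2c/c p53-/- lymphomas and at 17, 10 and 14 in WT thymuses. The groups were far apart, at a log2 fold change of 3.71 ± 0.34 (SE, adjusted p = 5.5e-06) and 3.0 ± 0.34 (adjusted p = 4.7e-05), or 13.1-fold and 7.98-fold. The promoter window of Trem2 (chr17:48346151-48346400, plus strand) is shown because it is the member that rose most in Atm-/- lymphomas, and holds TTCCTC, the reverse complement of the PU.1 core, and an AP-1 match just before the start.
Trem2: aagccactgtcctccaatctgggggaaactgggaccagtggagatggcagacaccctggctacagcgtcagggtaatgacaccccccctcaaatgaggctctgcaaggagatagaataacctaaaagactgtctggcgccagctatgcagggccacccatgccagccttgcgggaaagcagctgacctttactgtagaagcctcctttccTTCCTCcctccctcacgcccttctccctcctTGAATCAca

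TREM2 has no signaling tail of its own and works through the adaptor TYROBP (DAP12), whose gene passed in neither comparison. Tyrobp was at 383, 379, 296, 541 and 377, at 213, 270, 232, 425 and 283 and at 371, 296 and 395 in the 3 groups in the same order, with overlap throughout and an adjusted p of 0.672 and 0.302. Fcer1g, the common gamma chain through which the activating Fc receptors signal, had the highest mean of this group. It was at 650, 863, 468, 1085 and 643 in Atm-/- lymphomas, all above the 362, 296 and 351 of WT thymuses, and at 356, 520, 440, 634 and 366 in Rag2c/c p53-/- lymphomas, which overlapped with them. The log2 fold change was 1.09 ± 0.27 (SE, adjusted p = 0.00531) in Atm-/- lymphomas, and the adjusted p in Rag2c/c p53-/- lymphomas was 0.219.

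Fcgr4, a receptor for IgG2 antibodies, was at 82, 237, 59, 273 and 75 in Atm-/- lymphomas, at 84, 54, 77, 50 and 83 in Rag2c/c p53-/- lymphomas and at 17, 13 and 14 in WT thymuses. Atm-/- lymphomas 2 and 4 stood well above the rest, and no lymphoma overlapped with a thymus. Its log2 fold change was 2.94 ± 0.50 (SE, adjusted p = 0.000445) and 2.15 ± 0.50 (adjusted p = 0.00465). Fcgr3, a low-affinity IgG receptor, rose by a log2 fold change of 1.92 ± 0.38 (adjusted p = 0.00131) and 1.31 ± 0.38 (adjusted p = 0.0159), and Fcgr1, the high-affinity receptor, by 1.38 ± 0.48 (adjusted p = 0.0324) in Atm-/- lymphomas only. Fcgr3 and Fcgr4 have close relatives in the genome, Fcgr2b among them, so reads that fit more than one gene are a source of uncertainty. In this role group WT thymus 2 mattered most: without it Fcgr1 was at 0.72 (adjusted p = 0.200), Fcer1g at 1.0 just under the threshold, and Fcgr3 in Rag2c/c p53-/- lymphomas at 1.08 (adjusted p = 0.0802). Without Atm-/- lymphoma 4, Fcgr1 was at 1.2 (adjusted p = 0.0694) and Fcer1g at 0.93.

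**Figure D3:**
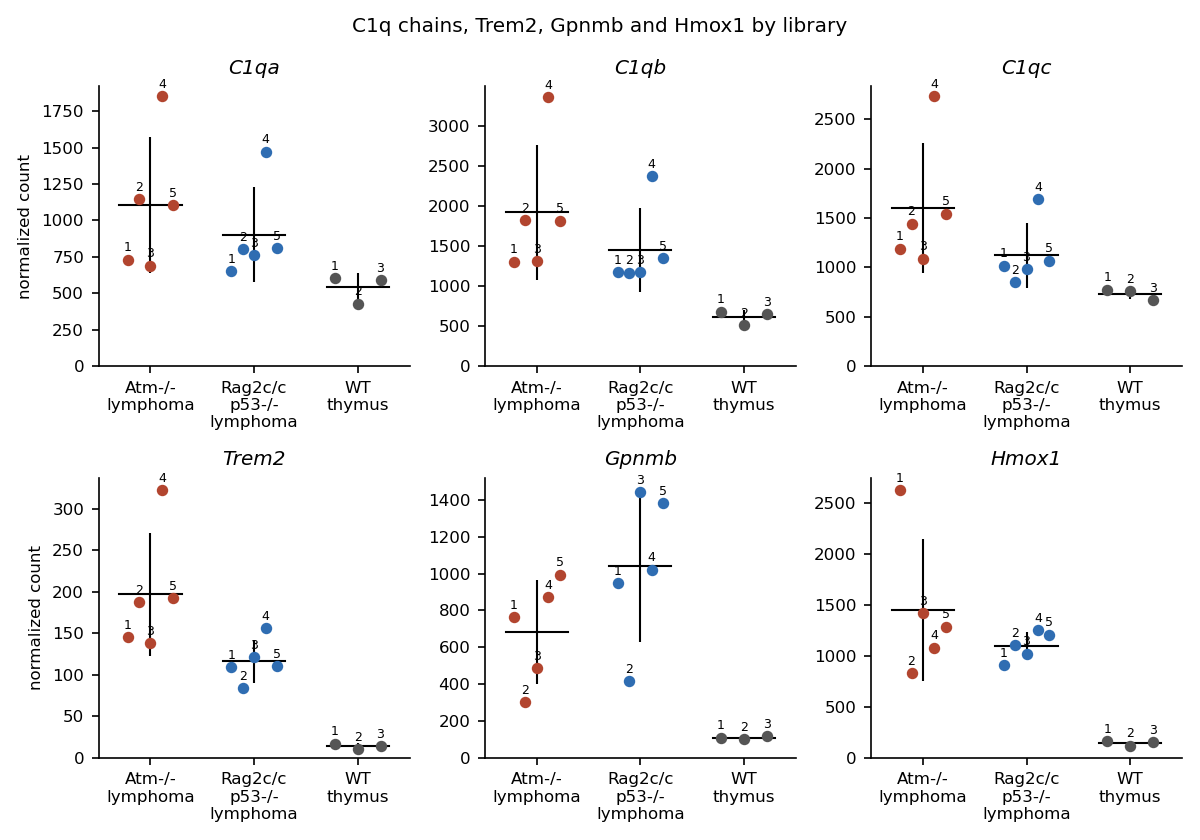
Normalized counts of the C1q chains, Trem2, Gpnmb and Hmox1 in each library (points, labelled by replicate number), with the group mean (horizontal line) and SD (vertical line), for Atm-/- lymphomas (n = 5), Rag2c/c p53-/- lymphomas (n = 5) and WT thymuses (n = 3). Library 4 tops each lymphoma group for all 3 C1q chains and for Trem2.

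Of the 2 integrin alpha chains, which pair with the same beta chain, Itgam was called higher in Atm-/- lymphomas, Itgax passed in no comparison, and neither passed in Rag2c/c p53-/- lymphomas. Itgam (CD11b), carried by macrophages and neutrophils, was at 1132, 1082, 1194, 352 and 1534 in Atm-/- lymphomas, at 1076, 581, 561, 743 and 370 in Rag2c/c p53-/- lymphomas and at 379, 416 and 448 in WT thymuses. Atm-/- lymphoma 4 and Rag2c/c p53-/- lymphoma 5 lay below every thymus, although the former was the highest of its group for 20 of the 37 members. Itgax (CD11c), of dendritic cells and some macrophages, was at 256, 98, 174, 158 and 282 in Atm-/- lymphomas, at 166, 98, 449, 143 and 370 in Rag2c/c p53-/- lymphomas and at 346, 318 and 444 in WT thymuses. All Atm-/- values of Itgax lay under the thymuses, but the adjusted p was 0.10. The ratio of Itgam to Itgax was 1.01 to 1.31 in WT thymuses, 2.23 to 11.0 in Atm-/- lymphomas and 1.0 to 6.48 in Rag2c/c p53-/- lymphomas. Itgam was called higher in Atm-/- lymphomas (log2 fold change 1.2 ± 0.41, SE, adjusted p = 0.0305), yet the call was lost without any of the Atm-/- lymphomas 1, 2, 3 and 5 or any of the WT thymuses, at an adjusted p of 0.0507 to 0.0956.

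Receptors for uptake and for microbial patterns split by gene. Cd14, the co-receptor for lipopolysaccharide, rose in both lymphoma groups: 151, 69, 144, 149 and 88 in Atm-/- lymphomas and 51, 64, 92, 65 and 67 in Rag2c/c p53-/- lymphomas compared with 20, 10 and 18 in WT thymuses. The groups did not overlap with thymus, at a log2 fold change of 2.82 ± 0.37 (SE, adjusted p = 8.0e-05) and 2.05 ± 0.37 (adjusted p = 0.00105). Axl, a receptor tyrosine kinase for phosphatidylserine on dying cells, had the highest mean of the 8, at 905, 308, 464, 786 and 644, at 965, 277, 492, 390 and 645 and at 913, 650 and 914. These groups overlapped (adjusted p = 0.324 and 0.185). Its relative Mertk had means of 163, 145 and 88.0 and an adjusted p of 0.0794 and 0.147, Mrc1 (the mannose receptor) means of 461, 291 and 223 and an adjusted p of 0.0626 and 0.463, and Siglec1 (a sialic acid receptor) means of 130, 86.8 and 56.3 and an adjusted p of 0.340 and 0.782. Mertk passed in Atm-/- lymphomas without lymphoma 2 (log2 fold change 1.05), and Mrc1 without that lymphoma (1.29) or without Rag2c/c p53-/- lymphoma 2 (1.04).

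Of the receptors of resident tissue macrophages, Timd4 was lower in both lymphoma groups and Cd163 passed in Rag2c/c p53-/- lymphomas. Timd4, which tethers phosphatidylserine, was at 31, 27, 20, 19 and 61 in Atm-/- lymphomas, at 16, 27, 19, 9 and 9 in Rag2c/c p53-/- lymphomas and at 110, 78 and 113 in WT thymuses. No lymphoma reached the lowest thymus, and the log2 fold change was -1.75 ± 0.47 (SE, adjusted p = 0.00888) and -2.67 ± 0.47 (adjusted p = 0.000842). Cd163, which takes up hemoglobin-haptoglobin complexes, was at 25, 14, 12, 21 and 30, at 14, 3, 10, 3 and 2 and at 85, 29 and 75 in the same order. It fell by 3.27 ± 0.60 in Rag2c/c p53-/- lymphomas (log2, SE, adjusted p = 0.00113), where all values lay under the thymuses. In Atm-/- lymphomas its adjusted p was 0.0549 and it was not called, but 6 of 22 other settings called it lower, at an adjusted p of 0.00115 (library weights) to 0.0379. The others were a pseudocount of 5, a fit of only these 2 groups, and fits without WT thymus 2 (log2 fold change -1.99, adjusted p = 0.0360), without Rag2c/c p53-/- lymphoma 1 and without both shallow libraries.

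Cd163 was also higher in Atm-/- than in Rag2c/c p53-/- lymphomas, by a log2 fold change of 1.75 ± 0.52 (SE, adjusted p = 0.0443), although Rag2c/c p53-/- lymphoma 1, at 14, lay within the Atm-/- range of 12 to 30. The call was lost without any of Atm-/- lymphomas 1, 4 and 5, Rag2c/c p53-/- lymphomas 2, 4 and 5 or WT thymuses 1 and 3, at an adjusted p of 0.0628 to 0.101. Vsig4, a complement receptor of tissue macrophages, was near the limit of these data, at 10, 5, 5, 26 and 26 in Atm-/- lymphomas, at 7, 3, 5, 0 and 1 in Rag2c/c p53-/- lymphomas and at 1, 3 and 6 in WT thymuses. Only Atm-/- lymphomas 4 and 5 reached 26, and no comparison passed (adjusted p = 0.0947, 0.847 and 0.0886 between the lymphoma groups).

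Of 8 proteins of the lysosome and phagosome, 5 were higher and 0 lower in Atm-/- lymphomas, where 12.6% of all genes were higher and 17.0% lower. In Rag2c/c p53-/- lymphomas 4 were higher and 1 lower, against 9.77% and 13.9% of all genes, so the 1 lower gene shows no excess. Lyz2 (lysozyme), the macrophage gene with the highest level per kilobase of exon in WT thymus and Atm-/- lymphomas, was at 5084, 3085, 5227, 5819 and 4839 in Atm-/- lymphomas, at 2147, 1780, 2903, 4221 and 3947 in Rag2c/c p53-/- lymphomas and at 1937, 1969 and 1897 in WT thymuses. Every Atm-/- value exceeded the thymuses, and Rag2c/c p53-/- lymphoma 2 lay below them. The log2 fold change was 1.28 ± 0.27 (SE, adjusted p = 0.00217) in Atm-/- lymphomas, and the adjusted p was 0.126 in Rag2c/c p53-/- lymphomas. Lyz1 is a close copy of Lyz2, so reads that fit both leave its level uncertain.

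Gpnmb, a glycoprotein of late endosomes in lipid-laden macrophages, had the steepest rise in Rag2c/c p53-/- lymphomas. It was at 763, 301, 487, 871 and 995 in Atm-/- lymphomas, at 948, 415, 1444, 1021 and 1383 in Rag2c/c p53-/- lymphomas and at 109, 101 and 116 in WT thymuses. All 10 tumors lay well above the thymuses, at a log2 fold change of 2.52 ± 0.42 (SE, adjusted p = 0.000428) and 3.13 ± 0.42 (adjusted p = 0.000147). Lgmn, the asparaginyl protease legumain, was at 951, 589, 816, 1700 and 1121 in Atm-/- lymphomas, at 1114, 1145, 1288, 2183 and 1604 in Rag2c/c p53-/- lymphomas and at 424, 354 and 447 in WT thymuses. Lgmn rose by a log2 fold change of 1.26 ± 0.30 (adjusted p = 0.00447) and 1.80 ± 0.30 (adjusted p = 0.000593), without overlap with thymus.

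Cd68, a lysosomal glycoprotein used as a pan-macrophage marker, had means of 1502 ± 444, 1324 ± 318 and 461 ± 30.0 (SD, n = 5, 5 and 3), a log2 fold change of 1.66 ± 0.23 (SE, adjusted p = 0.000110) and 1.49 ± 0.23 (adjusted p = 0.000350). Slc11a1 (NRAMP1), the phagosomal metal transporter, rose by a log2 fold change of 1.69 ± 0.34 (adjusted p = 0.00156) and 1.40 ± 0.34 (adjusted p = 0.00635). Other genes of the compartment did not share the rise. Ctss (cathepsin S) had means of 841, 959 and 1299 and an adjusted p of 0.0665 and 0.179, and Mpeg1 (the pore former perforin-2) means of 1334, 1082 and 1420 and an adjusted p of 0.802 and 0.407. Cybb, the catalytic subunit of the phagocyte NADPH oxidase, fell by 1.12 ± 0.30 in Rag2c/c p53-/- lymphomas (log2, SE, adjusted p = 0.00985), where 214, 182, 306, 254 and 287 lay under the 560, 429 and 632 of WT thymuses. Without WT thymus 3 it was at -1.0 (adjusted p = 0.0581).

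Of the lipid, heme and calcium binding proteins, Apoe and Hmox1 were higher in lymphomas and the S100 genes lower. Apoe, the lipid carrier secreted by macrophages, had the highest mean of the role group, at 5657, 6805, 3553, 12153 and 6056 in Atm-/- lymphomas, at 5270, 4803, 3695, 7975 and 5296 in Rag2c/c p53-/- lymphomas and at 3023, 3164 and 2846 in WT thymuses. No lymphoma overlapped with a thymus, and library 4 was again the highest of each lymphoma group. Its log2 fold change was 1.07 ± 0.31 (SE, adjusted p = 0.0139) in Atm-/- lymphomas and 0.80 ± 0.31 (adjusted p = 0.0587) in Rag2c/c p53-/- lymphomas. Without Atm-/- lymphoma 4 the former was 0.83, and without WT thymus 3 it was 1.03 (adjusted p = 0.0533). Aif1 (IBA1), a calcium binding protein of macrophages and microglia, had means of 103, 100 and 167 and passed in neither group (adjusted p = 0.214 and 0.178).

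Hmox1, heme oxygenase 1, which degrades heme taken up with red cells and is induced by oxidative stress, was at 2621, 827, 1416, 1079 and 1285 in Atm-/- lymphomas, at 907, 1104, 1019, 1249 and 1206 in Rag2c/c p53-/- lymphomas and at 159, 117 and 154 in WT thymuses. Atm-/- lymphoma 1 was the highest, and all tumors lay far above the thymuses. The log2 fold change was 3.22 ± 0.29 (SE, adjusted p = 4.4e-06) and 2.93 ± 0.29 (adjusted p = 1.7e-05), or 9.35-fold and 7.63-fold. Summed values of 8 erythroid genes ranged from 946 to 6986, from 859 to 4795 and from 1113 to 2417 in the same groups, and their part in the level of Hmox1 was not tested.

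S100a8 and S100a9, the pair that forms calprotectin, were the members that fell most. They lie on opposite strands of chromosome 3, at chr3:90669071-90670034 and chr3:90692632-90695721. S100a8 was at 20, 21, 9, 2 and 12 in Atm-/- lymphomas, at 2, 30, 8, 3 and 9 in Rag2c/c p53-/- lymphomas and at 253, 276 and 332 in WT thymuses. S100a9 was at 51, 59, 31, 0 and 18, at 8, 115, 21, 9 and 23 and at 527, 552 and 711. Every thymus lay above every lymphoma. The log2 fold change of S100a8 was -4.67 ± 0.76 (SE, adjusted p = 0.000359) and -5.15 ± 0.76 (adjusted p = 0.000272), and that of S100a9 -5.04 ± 1.15 (adjusted p = 0.00348) and -4.73 ± 1.15 (adjusted p = 0.00635). Without Atm-/- lymphoma 4, where S100a9 was at 0, its log2 fold change was -4.00, and without Rag2c/c p53-/- lymphoma 2, where both genes were highest, it was -5.33. S100a9 was 2.0 to 2.14 times S100a8 in the thymuses, and 1.5 to 3.83 times in the 7 lymphomas where S100a8 was above 3.

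Neutrophil genes moved with the S100 pair. Of 11 neutrophil genes tested 7 were lower in each lymphoma group in limma and 0 were higher (0 also at an unadjusted p under 0.05). Of all genes 17.0% were lower and 12.6% higher in Atm-/- lymphomas, and 13.9% and 9.77% in Rag2c/c p53-/- lymphomas. The sum over the list of 12 was 206 to 365 in Atm-/- lymphomas, 145 to 311 in Rag2c/c p53-/- lymphomas and 1450 to 2113 in WT thymuses. Ngp (neutrophilic granule protein), the gene of the list with the highest mean, was at 15, 32, 11, 2 and 1, at 1, 41, 3, 0 and 6 and at 503, 721 and 711, a log2 fold change of -6.27 ± 1.1 (SE, adjusted p = 0.000599) and -7.08 ± 1.1 (adjusted p = 0.000376). Ly6g was at or under 3 in every lymphoma. Rag2c/c p53-/- lymphoma 2 was the highest of its group for Ngp as for S100a8 and S100a9. What part neutrophils in the tissue have in the S100 values was not tested. The promoter windows of the pair are shown for comparison (S100a8, chr3:90668821-90669070, plus strand; S100a9, chr3:90695722-90695971, minus strand): S100a8 holds TTCCTC, the PU.1 core on the other strand, 2 times, and S100a9 holds a single C/EBP match and no PU.1 core.
S100a8: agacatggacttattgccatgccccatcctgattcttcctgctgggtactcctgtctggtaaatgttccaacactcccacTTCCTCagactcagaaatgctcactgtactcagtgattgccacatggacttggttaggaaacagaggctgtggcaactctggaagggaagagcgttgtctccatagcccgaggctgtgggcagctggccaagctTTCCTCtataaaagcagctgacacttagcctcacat
S100a9: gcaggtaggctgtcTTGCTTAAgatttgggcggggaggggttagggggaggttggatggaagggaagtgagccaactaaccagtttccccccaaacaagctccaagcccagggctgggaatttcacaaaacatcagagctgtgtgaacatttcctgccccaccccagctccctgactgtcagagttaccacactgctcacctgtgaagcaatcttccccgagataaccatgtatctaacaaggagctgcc

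**Figure D4:**
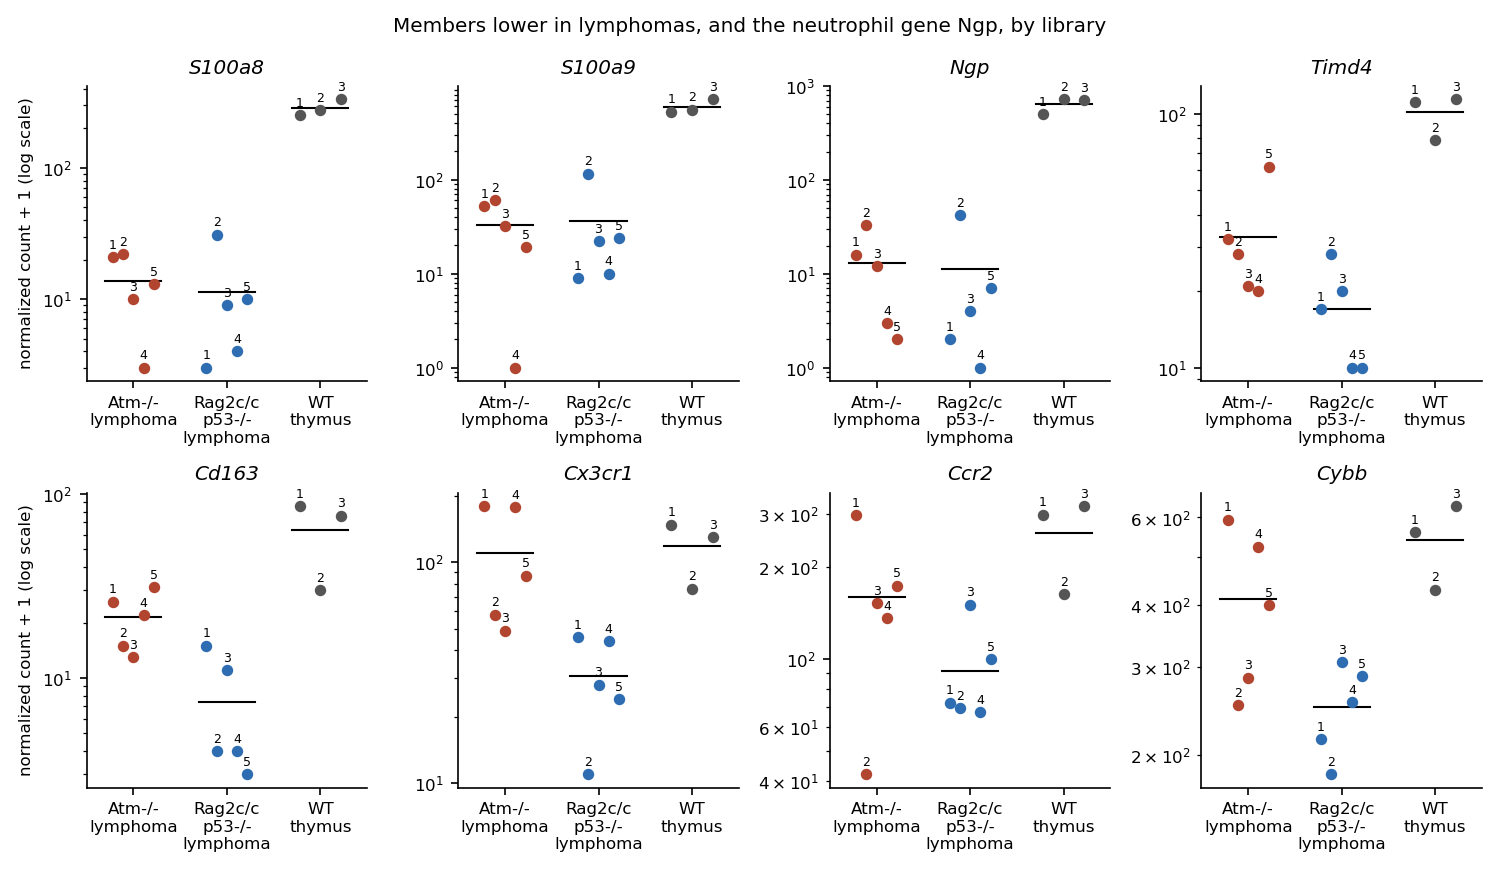
Normalized counts plus 1, on a log axis, of members that were lower in lymphomas and of the neutrophil gene Ngp in each library (points, labelled by replicate number), with the group mean plus 1 (horizontal line); n = 5, 5 and 3. S100a8, S100a9, Ngp and Timd4 separate all lymphomas from the thymuses, whereas for Cd163, Cx3cr1, Ccr2 and Cybb the Rag2c/c p53-/- lymphomas lie below the thymuses and the Atm-/- lymphomas overlap with them.

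Between the lymphoma groups, 31 of the 37 members had a log2 fold change above 0 in the Atm-/- direction, with a median of 0.47 against 0.02 for all genes. The members are not independent of each other: Atm-/- lymphoma 4 was the highest of its group for 20 of the 37. Cx3cr1 and Cd163 were the 2 members that passed as higher in limma (5.41%, all genes 3.51%), and 0 passed as lower (all genes 4.33%, or 7.84% in either direction). Groups did not overlap for 1 member that was higher, Cx3cr1 (all genes 3.85%), and for 0 that were lower (4.48%). At an unadjusted p under 0.05 there were 10 higher and 0 lower, and among the 8 not called were Fcer1g, Lyz2, Cybb, Trem2 and Cd14, with log2 fold changes of 0.65, 0.73, 0.67, 0.72 and 0.77. The share of all genes above 0 or under this unadjusted p was not counted, so neither count shows a general shift of the members. Without the 2 shallowest libraries no member passed. Those with the lowest log2 fold change were Gpnmb, at -0.61 ± 0.37 (SE, adjusted p = 0.317), Lgmn, at -0.54 ± 0.26 (adjusted p = 0.203), and S100a9, at -0.31 ± 1.0 (adjusted p = 0.884), the last of which turned positive without Atm-/- lymphoma 4 (0.73) or Rag2c/c p53-/- lymphoma 2 (0.29).

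Compared per kilobase of exon, the order of the members changed between tissues. In WT thymus Lyz2 (1470 per kb), Apoe (1408), S100a9 (1143) and Ctss (957) led. In Atm-/- lymphomas Lyz2 (3656), Apoe (3201), C1qb (1766) and Cd68 (1195) led, and in Rag2c/c p53-/- lymphomas Apoe (2529), Lyz2 (2279), C1qb (1329) and Cd68 (1053). Trem2 was the 36th of 37 in WT thymus, at 2.76 per kb, and the 27th and 29th in the lymphoma groups.

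The members varied more among tumors than among thymuses. The median coefficient of variation was 38.7% in Atm-/- lymphomas, 35.8% in Rag2c/c p53-/- lymphomas and 19.0% in WT thymuses, and the median ratio of the highest to the lowest library was 2.65, 2.21 and 1.43. Group sizes differ, and the last ratio is over 3 libraries. Atm-/- lymphoma 4 was the highest of its group for 20 members and Rag2c/c p53-/- lymphoma 4 for 15 of the 37. The summed value of the members was 22914 to 43533, 18361 to 32010 and 14485 to 17520 in the 3 groups, without overlap between lymphoma and thymus, and Atm-/- lymphoma 4 held the top of the range.

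Among 26 other macrophage and monocyte genes, 7 were higher and 2 lower in Atm-/- lymphomas, against 12.6% and 17.0% of all genes. In Rag2c/c p53-/- lymphomas 7 were higher and 4 lower, against 9.77% and 13.9% of all genes, so lower genes showed no clear excess. The medians were 0.31 and 0.24 on the log2 scale. The same shares of all genes apply to the counts of the lists that follow. Marco, a scavenger receptor for bacteria and particles, was at 644, 219, 79, 220 and 178 in Atm-/- lymphomas, at 51, 34, 41, 6 and 12 in Rag2c/c p53-/- lymphomas and at 2, 3 and 2 in WT thymuses. All 3 groups were apart, and the difference between the lymphoma groups passed as well (log2 fold change 3.20 ± 0.61, SE, adjusted p = 0.00498). Cd5l, a protein secreted by tissue macrophages, rose by a log2 fold change of 3.80 ± 0.42 (adjusted p = 2.2e-05) and 2.98 ± 0.42 (adjusted p = 0.000190). Ly6c2, a marker of inflammatory monocytes, was lower, at a log2 fold change of -1.97 ± 0.47 (adjusted p = 0.00423) and -2.28 ± 0.47 (adjusted p = 0.00217). Cd86 was also called lower in both groups, and Pilra and Lst1 in Rag2c/c p53-/- lymphomas. C3ar1 and C5ar1, the receptors for the complement fragments C3a and C5a, rose in both groups, by 2.31 ± 0.47 and 2.05 ± 0.47 for C3ar1 (adjusted p = 0.00153 and 0.00423) and by 3.32 ± 0.36 and 2.73 ± 0.36 for C5ar1 (adjusted p = 1.9e-05 and 0.000124). Irf8, the transcription factor with the highest mean of the list, passed in neither comparison (adjusted p = 0.181 and 0.514).

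The ligands and signaling partners of the members gave a mixed picture. Of 8 ligand and chemokine genes tested, Ccl2 and Ccl7, which attract monocytes through CCR2, were higher in both lymphoma groups. Ccl2 was at 57, 7, 110, 41 and 39, at 24, 24, 23, 22 and 18 and at 6, 0 and 2, and Il34, a ligand of CSF1R, was at 6, 39, 2, 8 and 5, at 1, 34, 17, 13 and 21 and at 217, 205 and 164. The log2 fold change of Il34 was -4.51 ± 0.89 (SE, adjusted p = 0.00131) and -3.89 ± 0.89 (adjusted p = 0.00434), while Csf1, the other ligand, had an adjusted p of 0.858 and 0.436. Cx3cl1, the ligand of CX3CR1, fell by 2.26 ± 0.67 (adjusted p = 0.0170) in Rag2c/c p53-/- lymphomas from low values of 10 to 20 in WT thymuses. Gas6, a ligand of AXL and MERTK and the gene of the list with the highest mean, had an adjusted p of 0.0906 and 0.895. Of 10 genes that signal below ITAM receptors, 1 was higher (the kinase Fgr) and 4 were lower in Atm-/- lymphomas, and 1 was higher and 6 lower in Rag2c/c p53-/- lymphomas. Syk, the kinase that binds phosphorylated ITAMs, had a log2 fold change of -2.33 ± 0.24 (adjusted p = 1.5e-05) in the former, and Btk one of -1.79 ± 0.35 (adjusted p = 0.00164) in the latter. Ptpn6, a phosphatase with the highest mean of the list, had an adjusted p of 0.374 and 0.0926. Lymphocytes express several of these genes too.

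In the other pathways of phagocytes, few genes passed against WT thymus, apart from 3 complement genes in Atm-/- lymphomas. Of 5 genes of the NADPH oxidase, Ncf4 was higher in Atm-/- lymphomas (log2 fold change 1.52 ± 0.42, SE, adjusted p = 0.0105) and Ncf1 lower in Rag2c/c p53-/- lymphomas (-1.26 ± 0.33, adjusted p = 0.00923). Of 6 further complement genes tested, 3 (C1ra, C4b and C2) were higher in Atm-/- lymphomas and 0 passed in Rag2c/c p53-/- lymphomas in limma (0 also at an unadjusted p under 0.05). C2 was also higher in Atm-/- than in Rag2c/c p53-/- lymphomas, by a log2 fold change of 1.55 ± 0.36 (adjusted p = 0.0131). Of 10 lysosomal enzymes, Ctsl was higher in Atm-/- lymphomas (1.62 ± 0.37, adjusted p = 0.00328), Ctsz in Rag2c/c p53-/- lymphomas (1.1 ± 0.15, adjusted p = 0.000179), and Lipa, the acid lipase, lower in both (-1.78 ± 0.27, adjusted p = 0.000201, and -1.46 ± 0.27, adjusted p = 0.00108).

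Markers of other cells of the tissue shifted beside the members. Of 8 fibroblast genes tested 6 and 5 were higher (Col1a2 most), with sums of 4347 to 19250, 2355 to 4565 and 578 to 731 in Atm-/- lymphomas, Rag2c/c p53-/- lymphomas and WT thymuses. Atm-/- lymphoma 4, the library with the highest C1q values of its group, had the highest fibroblast sum, whereas Rag2c/c p53-/- lymphoma 4, likewise the highest of its group for C1q, had a fibroblast sum of 2457, the second lowest of its 5. Of 10 dendritic cell genes 7 and 6 were lower, Ccr7 and Itgae among them, with sums of 483 to 818, 236 to 482 and 3497 to 4499. B cell genes (5 and 6 of 8, Ms4a1 most) and thymic epithelial genes (4 and 5 of 8, with Psmb11 and Prss16 lowest) were lower too. Of 7 natural killer cell genes tested 5 were lower and 1, Gzma, was higher in each lymphoma group. Of 10 thymocyte genes 3 were lower in Atm-/- lymphomas (all genes 17.0%) and 1, Rag1, in Rag2c/c p53-/- lymphomas (all genes 13.9%). The 2 mast cell and basophil genes tested, Cpa3 and Hdc, had an adjusted p of 0.625 and 0.0840 for Atm-/- and of 0.430 and 0.383 for Rag2c/c p53-/- lymphomas. Of 4 endothelial genes tested Cdh5 and Kdr were lower in Rag2c/c p53-/- lymphomas, and of 6 erythroid genes tested Klf1 was higher in both groups. Dendritic cells also express Itgax, Ccr2 and Cx3cr1, and fibroblasts also express Axl and complement genes. What part these cells have in the values of the members was not tested.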

How the data were processed

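By the study's methods, poly(A) RNA from single-cell suspensions was sequenced as stranded libraries. These methods describe the WT thymuses but not the Atm-/- and Rag2c/c p53-/- lymphomas, for which they were taken to hold. Per the labels, the submitters used bcl2fastq 1.8.3, STAR 2.4.0g1, Picard and DESeq2 1.6.3 with the mouse genome GRCm38. The study's methods, which describe the WT thymuses, add Ensembl gene models, removal of duplicates and counting of uniquely mapped reads. The deposited values are a score of whole numbers: read counts that the authors divided by size factors and rounded. The deposited table also holds columns of the authors' group means, fold changes, p-values, adjusted p-values and dispersions, none of which was used.

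Values were analyzed as log2(value + 1) in limma 3.58.1 (R 4.3.3), with 13 libraries in 3 groups, trend and robust moderation, and Benjamini-Hochberg adjustment over the 15872 of 43629 genes at 10 or more in at least 3 libraries. A call needed an adjusted p under 0.05, a log2 fold change of at least 1 in size and, in at least 1 group of the comparison, a mean of 10 or more. No count model was used, since whole reads could not be recovered in 7 libraries. Column totals were 19788898 to 21591289. The scripts were tested on simulated data. Tables and plots were made with Python 3.11.15, pandas 2.3.3, numpy 2.4.6 and matplotlib 3.10.9. Promoters came from RefSeq (GRCm38.p6).

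Groups were taken from the labels, which call the WT samples thymic lymphoma in one field and thymus in another. The p-values set a difference between group means against the moderated spread of these samples within groups. The 37 members, their role groups and the 16 other lists (156 genes, after leaving out 1 that is not reported here) were chosen with earlier results of these data known. Values in every library were given for the member with the highest mean of each role group and for the 3 top and the 3 bottom members by log2 fold change in each comparison. Others are given by means or, where chosen after their values were seen (Cebpb, Tyrobp, Itgax, Cd14, Ccr2 and Cybb), in full. Of the other lists the gene with the highest mean and the called genes at either end of the log2 fold changes were named, and C3ar1, C5ar1, Ccl7, Csf1, Cx3cl1, C4b and a few of the cell type markers were added after their values were seen. Alternatives were other size factors, equal totals, no filter, other pseudocounts, no fold threshold, fits of 2 groups, library weights and leaving out each library.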

Additional observations from a re-analysis of the deposited data

Results flagged for a closer look

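Of 74 groups of 5 lymphomas looked at (37 genes in 2 groups), 11 had a library whose gap to its neighbor exceeded Dixon's 95% critical value. Chance would flag about 1 in 20 groups if they were independent and normally distributed. The gaps were taken on values not on the log scale, and the same libraries recur, so the count shows no excess over chance. Library 4 was the high one for C1q: in Rag2c/c p53-/- lymphoma 4 C1qa was at 1472, C1qb at 2375 and C1qc at 1694, and in Atm-/- lymphoma 4 C1qb was at 3356 and C1qc at 2734. Aif1 was highest in the same Atm-/- lymphoma, at 169, and Timd4 in Atm-/- lymphoma 5, at 61. Rag2c/c p53-/- lymphoma 2, the shallowest library, was low for Mertk, at 84, and Mpeg1, at 453, and high for S100a8, at 30, and S100a9, at 115.

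The difference between Atm-/- and Rag2c/c p53-/- lymphomas passed limma's test for Cx3cr1, at a log2 fold change of 1.81 (adjusted p = 0.0288), and Cd163, at 1.75 (adjusted p = 0.0443). Of 22 other settings, 5 lost the call of Cx3cr1, at an adjusted p of up to 0.0744, and 12 lost that of Cd163, at up to 0.101.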

How the results depend on the processing

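Under 22 other settings, 28 of the 40 called values of members were called in every one. The 2 calls between lymphoma groups became 1 without the filter, 1 with a pseudocount of 5, 0 when only 2 groups were fitted, 0 without the 2 shallowest libraries (chosen after seeing the data), and 0 to 2 when 1 library was left out. The 3 members lower in Atm-/- lymphomas became 5 with only 2 groups fitted and 5 with library weights. Without 1 library the counts were 13 to 18 higher and 3 to 4 lower in Atm-/- lymphomas, and 10 to 11 higher and 4 to 7 lower in Rag2c/c p53-/- lymphomas. The cause of these shifts was not tested. Of 71 uncalled values, 12 changed sign without 1 library, and 0 of the called ones did. In log2 fold change these ran, between lymphoma groups, from -0.11 to 0.32 for Aif1, -0.02 to 0.43 for Axl, -0.45 to 0.06 for Cebpb, -0.47 to 0.08 for Itgax, -0.05 to 0.35 for Mertk, -0.74 to 0.73 for S100a9 and -0.01 to 0.44 for Spic. For Rag2c/c p53-/- lymphomas against thymus they ran from -0.20 to 0.31 for Csf1r, -0.00 to 0.69 for Mrc1, -0.09 to 0.77 for Siglec1 and -0.69 to 0.22 for Vsig4, and for Atm-/- lymphomas from -0.42 to 0.06 for Mpeg1. Library weights turned Tyrobp to -0.01 in Atm-/- lymphomas and, between lymphoma groups, S100a9 to 0.05 and Cebpb to 0.02. Leaving out the 2 shallowest libraries turned Axl to -0.02, Mertk to -0.05, S100a9 to 0.29 and Cebpb to 0.06 there. The groups come from different mice, so there was no pairing to use. In the shallowest library 1 read stands for a value of 3.38, which limits what values near 0 can show.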
